A study of Mus musculus with 9 samples.

Results

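The mitochondrial chromosome encodes 13 proteins of the respiratory chain, and 6 of them belong to complexes III, IV and V. Their genes mt-Cytb, mt-Co1, mt-Co2, mt-Co3, mt-Atp6 and mt-Atp8 were taken by gene name from a count table of 55401 genes. All 6 passed the filter on low counts, among 16762 genes tested. The table came from primary neonatal mouse ventricular myocytes (NMVMs), heart muscle cells isolated from wild-type C57BL/6J pups at the age of 1 day. There were 9 libraries, with 3 per group. Control cultures stayed in normoxia in complete medium (DMEM with 10% FBS). The hypoxia cultures were washed, given DMEM free of glucose and serum and kept for 6 h in a sealed AnaeroPack chamber. The hypoxia + rSRGN cultures had the same medium and the same 6 h, with recombinant SRGN (serglycin, the core protein of a secretory granule proteoglycan) in the medium, at a dose not given in the sources used here. Low oxygen and the loss of glucose and serum therefore cannot be told apart when either hypoxic group is set against control. Nothing in the labels says that the 3 libraries of a group came from separate cultures or animals, so the p-values measure the spread between these libraries, which may be technical.

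Mitochondrial DNA is transcribed from a few promoters into long precursors, which are cut, largely at the tRNAs between the genes, into mRNAs, rRNAs and tRNAs, so that the level of each mRNA depends on its own stability as well as on transcription. Cytochrome b, the product of mt-Cytb, is the one mitochondrially encoded subunit of complex III (cytochrome bc1 complex). The products of mt-Co1, mt-Co2 and mt-Co3 form the core of complex IV (cytochrome c oxidase), which passes electrons to oxygen. Those of mt-Atp6 and mt-Atp8 belong to the membrane part of complex V (ATP synthase). Heart muscle is rich in these complexes, and all the other subunits of complexes III to V are made from nuclear genes.

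Poly(A)-enriched RNA was sequenced. Total counts were 21669017 to 22781557 in the control libraries, 16583985 to 18148474 in the hypoxia libraries and 16640239 to 20826701 in the hypoxia + rSRGN libraries. The mitochondrial chromosome took 8.30 to 9.51% of these counts in control, 5.28 to 5.77% in hypoxia and 4.82 to 5.64% in hypoxia + rSRGN. All 10 cardiomyocyte markers had counts in every group, but their summed level was 41116 to 49928 CPM (counts scaled to a common library size) in control, 3619 to 5550 in hypoxia and 7045 to 7561 in hypoxia + rSRGN. The 8 fibroblast markers summed to 8657 to 10243, 17099 to 19890 and 18917 to 19478 CPM in the same order. In such bulk samples, fewer cells of a type and less RNA per cell cannot be told apart.

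The 6 genes lie on the plus strand of chromosome M in GRCm38 and have no introns. mt-Co1 (ENSMUSG00000064351.1) spans 5328 to 6872, mt-Co2 (ENSMUSG00000064354.1) 7013 to 7696, mt-Atp8 (ENSMUSG00000064356.3) 7766 to 7969, mt-Atp6 (ENSMUSG00000064357.1) 7927 to 8607 and mt-Co3 (ENSMUSG00000064358.1) 8607 to 9390. mt-Cytb (ENSMUSG00000064370.1) stands apart from this block, at 14145 to 15288. mt-Atp8 and mt-Atp6 are read from a shared mRNA and overlap by 43 bases, which leaves 161 of the 204 bases of mt-Atp8 to itself. mt-Atp6 and mt-Co3 share 1 base.

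Parts of the mitochondrial chromosome have been copied into the nuclear genome during evolution, and such copies carry gene models of their own. The 6 transcripts were compared with all annotated nuclear transcripts (GENCODE release 21, GRCm38), and 10 nuclear genes matched 1 of the 6 with at least 90% identity over at least 100 bases. Chromosome 1 carries 4 of these on its minus strand, between 24613189 and 24616197, side by side in the mitochondrial gene order. Gm28661 repeats mt-Co2 over 681 bases with 0 mismatches, Gm10925 repeats mt-Atp6 over 678 bases with 0 mismatches, and Gm28437 repeats mt-Co3 over 783 bases with 0 mismatches. Gm29216 repeats mt-Co1 from base 1063 to its end at base 1545, over 483 bases with 1 mismatch. mt-Atp8 has no annotated copy by this rule. The copies of mt-Co2 and mt-Atp6 on chromosome 1 are 233 bases apart, as far as their matched parts are on the mitochondrial chromosome, and the nuclear sequence between them was not used here. The only match of mt-Cytb was Gm11410 on chromosome 4, with 81 mismatches over 1142 bases.

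The sequences below, from GENCODE release 21, show how far single members can be told from these copies. They are written 5′ to 3′ from the mitochondrial plus strand, and capitals mark the bases at which the named nuclear copy differs. The stretches of mt-Co2 (chrM:7013-7162, against Gm28661) and mt-Atp6 (chrM:7927-8076, against Gm10925) have no capital.
mt-Co2: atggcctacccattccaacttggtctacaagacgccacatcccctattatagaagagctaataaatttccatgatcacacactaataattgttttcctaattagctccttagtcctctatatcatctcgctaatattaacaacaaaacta
mt-Atp6: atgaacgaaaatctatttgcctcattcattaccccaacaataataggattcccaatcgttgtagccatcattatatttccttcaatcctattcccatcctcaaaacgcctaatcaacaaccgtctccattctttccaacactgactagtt
The start of mt-Co1 (chrM:5328-5477) is set against Gm13340, a copy on chromosome 2 with 37 mismatches over all 1545 bases. The later stretch (chrM:6390-6539) is set against Gm29216. Its only difference is A1066T, with the mitochondrial base first and positions counted from the first base of mt-Co1.
mt-Co1, first 150 bases: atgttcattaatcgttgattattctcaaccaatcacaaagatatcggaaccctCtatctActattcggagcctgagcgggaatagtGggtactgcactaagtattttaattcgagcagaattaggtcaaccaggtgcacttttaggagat
mt-Co1, from base 1063: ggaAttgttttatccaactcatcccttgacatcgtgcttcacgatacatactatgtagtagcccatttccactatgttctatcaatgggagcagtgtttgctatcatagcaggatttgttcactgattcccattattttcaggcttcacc
mt-Cytb (chrM:14146-14295, against Gm11410) differs at 10 of 150 bases.
mt-Cytb: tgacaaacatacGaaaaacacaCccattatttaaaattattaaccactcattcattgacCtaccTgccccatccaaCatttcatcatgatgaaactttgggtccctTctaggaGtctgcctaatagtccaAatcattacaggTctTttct
The whole of mt-Atp8 (chrM:7766-7969) is shown because it is the shortest member, and there the capitals mark the 43 bases it shares with mt-Atp6.
mt-Atp8: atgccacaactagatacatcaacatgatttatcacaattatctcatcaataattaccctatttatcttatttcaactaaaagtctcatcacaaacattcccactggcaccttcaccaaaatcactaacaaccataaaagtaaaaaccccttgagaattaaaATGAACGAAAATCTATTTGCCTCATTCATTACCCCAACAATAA

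Each member was read in windows of 100 bases, and a window was scored when an annotated nuclear transcript held it exactly. This was so for 582 of 585 windows of mt-Co2 (99.5%), 579 of 582 of mt-Atp6 (99.5%) and 684 of 685 of mt-Co3 (99.9%). It held for 446 of 1446 windows of mt-Co1 (30.8%), and for 0 of 1045 windows of mt-Cytb and 0 of 105 of mt-Atp8. The 0 of mt-Atp8 covers annotated transcripts only, since the nuclear sequence between the copies of mt-Co2 and mt-Atp6 was not used. The recorded counting command had no option for fragments with several places in the genome, and by the program's default these are left out. For mt-Co2, mt-Atp6 and mt-Co3 the deposited counts therefore cover the fragments that the aligner gave a single place. Their copies on chromosome 1 held 40.5 to 74.1% of the counts of member and copy together. Other copies of these members had at most 37 counts in a library.

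Gm10925 had 4465, 4276 and 3625 counts in control, 2046, 2349 and 1635 in hypoxia and 1326, 1685 and 1396 in hypoxia + rSRGN. Of the counts of mt-Atp6 and Gm10925 together, Gm10925 held 49.3 to 54.6% in control, 61.2 to 74.1% in hypoxia and 65.1 to 68.9% in hypoxia + rSRGN. Gm28661 held 40.5 to 54.8% of its pair with mt-Co2 over the 9 libraries and Gm28437 44.2 to 63.7% of its pair with mt-Co3. Gm29216, which matches the end of mt-Co1 alone, held 0.155 to 0.240% of its pair. Gm11410, the copy of mt-Cytb, was at 0 counts in all 9 libraries. The 4 members other than mt-Co1 and mt-Cytb made up 0.732 to 1.30% of all counts of the 6 in a library.

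**Figure D1:**
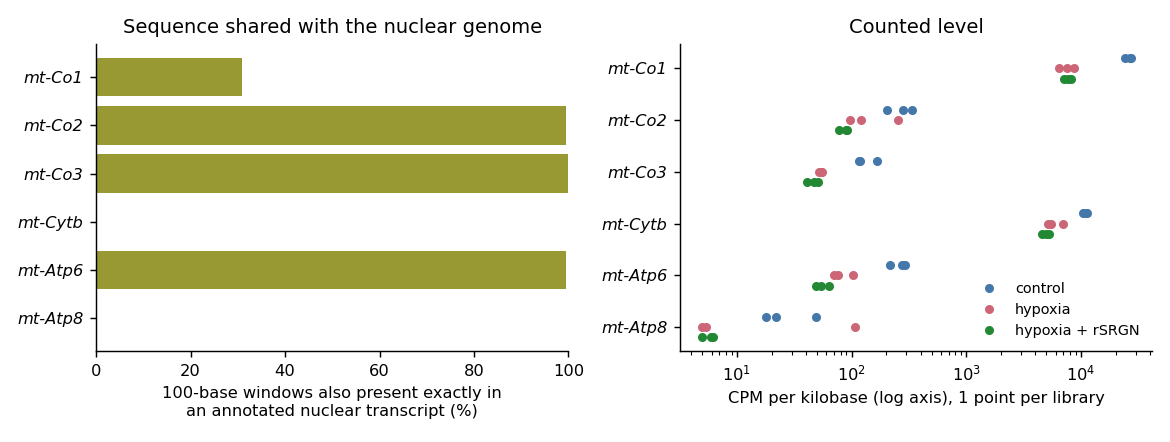
Left, the share of 100-base windows of each of the 6 transcripts that an annotated nuclear transcript also holds, in percent. Right, the level of each transcript in CPM per kilobase on a log axis, 1 point per library and 1 colour per group. mt-Co2, mt-Co3 and mt-Atp6 share over 99% of their windows and lie at 40.5 to 336 CPM per kilobase, while mt-Cytb shares none and lies at 4576 to 11299.

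Levels between genes were compared per kilobase of gene length, in CPM scaled by TMM. In control, mt-Co1 was highest with 26165 ± 1690 CPM per kilobase (SD, n = 3), followed by mt-Cytb with 10799 ± 466. mt-Co2 with 274 ± 66.6 and mt-Atp6 with 260 ± 40.7 came next, and their ranges overlapped. mt-Co3 stood at 134 ± 27.7 and mt-Atp8 at 29.6 ± 16.8 CPM per kilobase. In hypoxia mt-Co1 was at 7559 ± 1152 and mt-Cytb at 5866 ± 968, and in hypoxia + rSRGN at 7644 ± 546 and 4924 ± 330, with mt-Co1 above mt-Cytb within each library. Below these 2, mt-Co2 stood above mt-Atp6 and mt-Atp6 above mt-Co3 within every library of both hypoxic groups, although the ranges of mt-Co2 and mt-Atp6 overlapped in hypoxia and those of mt-Atp6 and mt-Co3 in hypoxia + rSRGN. In control, mt-Co2 was above mt-Atp6 in replicates 1 and 2 and below it in replicate 3. mt-Atp8 reached 106 CPM per kilobase in hypoxia replicate 2, above all mt-Co3 values of that group, and lay under them in its other 2 libraries. For the members with nuclear copies, and for mt-Atp8 with its 204 bases, these are levels of what was counted, and the low place of the 4 in the order was not tested apart from the copies.

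Hypoxia was compared with control to ask how the cultures respond to 6 h without oxygen, glucose and serum. Of the 6 members, 5 were lower in hypoxia, 0 were higher and mt-Atp8 was not called, with a median log2 fold change of −1.10. Over all 16762 genes, 51.6% were called, 26.4% higher and 25.1% lower, with a median of 0.05. A call needed edgeR's quasi-likelihood test to give an adjusted p (Benjamini-Hochberg) under 0.05 and the level to change by 1.5-fold or more. The hypoxia and control libraries did not overlap for 4 of the 6 members, against 73.0% of all genes.

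The subunit of complex III comes first. mt-Cytb had 12926, 11872 and 12263 CPM in the 3 control libraries and 6276, 7969 and 5888 CPM in the 3 hypoxia libraries. Every hypoxia library lay below every control library, and the level was 1.84-fold lower (log2 fold change −0.88, SE 0.10, adjusted p = 4.34e-08, edgeR). No 100-base window of mt-Cytb was found in an annotated nuclear transcript. Its only copy had 0 counts, so adding that copy could not change the value. Without hypoxia replicate 2, the highest of its group, the log2 fold change was −1.02.

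In complex IV, mt-Co1, which encodes the catalytic subunit that holds the site of oxygen reduction, had the most counts of the 6. It stood at 41711, 37420 and 42143 CPM in control and 11621, 13487 and 9928 CPM in hypoxia. The groups were far apart, with hypoxia 3.46-fold lower (log2 fold change −1.79, SE 0.10, adjusted p = 6.05e-13, edgeR). mt-Co2, whose product receives electrons from cytochrome c, had 194, 230 and 139 CPM in control and 82.7, 172 and 66.8 CPM in hypoxia. Hypoxia replicate 2 lay above control replicate 3, so the groups overlapped, and the 1.75-fold lower level passed the test with log2 fold change −0.81, SE 0.21 and adjusted p = 0.00202 (edgeR). Without hypoxia replicate 2 the log2 fold change of mt-Co2 was −1.33. Without hypoxia replicate 3 it was −0.56, under the fold limit, and with DESeq2 in place of edgeR the adjusted p was 0.0509. mt-Co3, which encodes the third core subunit, had 93.5, 91.7 and 130 CPM in control and 43.3, 42.5 and 40.9 CPM in hypoxia. Its hypoxia libraries lay close together and below all control libraries (2.49-fold lower, log2 fold change −1.32, SE 0.11, adjusted p = 5.70e-10, edgeR).

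In complex V, mt-Atp6, whose product forms part of the proton path through the membrane, had 187, 198 and 146 CPM in control and 69.8, 47.5 and 51.7 CPM in hypoxia. The groups did not overlap, and hypoxia was 3.14-fold lower (log2 fold change −1.65, SE 0.13, adjusted p = 8.82e-11, edgeR). Its copy Gm10925 was lower by less, with log2 fold change −0.74 (SE 0.10), as was Gm28437, the copy of mt-Co3, with −0.77 (SE 0.11) beside −1.32 for mt-Co3. Gm28661, the copy of mt-Co2, had −0.54 (SE 0.16) and was not called, beside −0.81 for mt-Co2. With the counts of nuclear copies added, the log2 fold change was −1.11 for mt-Atp6, −1.01 for mt-Co3 and −0.68 for mt-Co2, and the calls stayed. mt-Atp8, which encodes a small subunit of the membrane part, behaved differently from library to library. Its raw counts were 100, 81 and 206 in control and 19, 375 and 19 in hypoxia, which is 4.49, 3.66 and 9.95 CPM against 1.02, 21.7 and 1.10 CPM. The library with 375 counts, hypoxia replicate 2, exceeded all control libraries, while the other 2 hypoxia libraries lay below them. mt-Atp8 was not called over all libraries (log2 fold change 0.39, SE 0.63, adjusted p = 0.592, edgeR). Without hypoxia replicate 2 its log2 fold change was −2.50 (SE 0.39, adjusted p = 4.32e-06, edgeR), so that all 6 members were called lower.

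**Figure D2:**
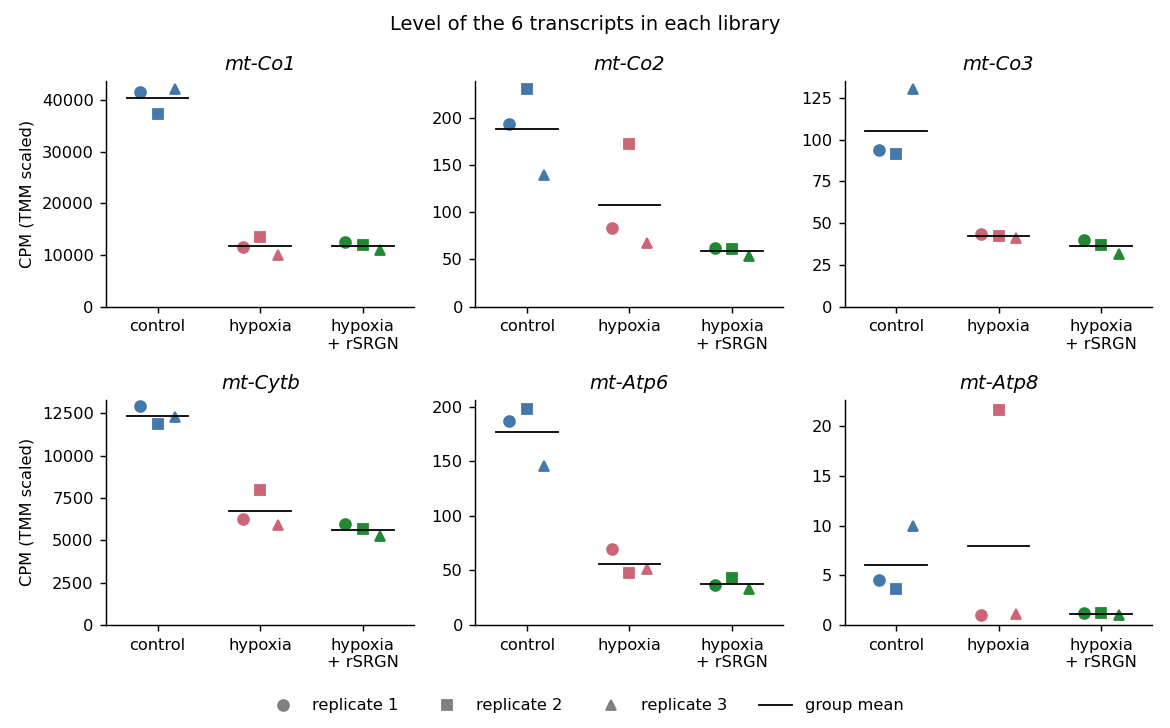
CPM (scaled by TMM) of the 6 transcripts in the 9 libraries, 1 panel per gene with its own axis from 0, marker shape for the replicate number and a line at the group mean. In hypoxia, replicate 2 stands above its group for mt-Co2 (172 CPM) and mt-Atp8 (21.7 CPM), while mt-Co3 and mt-Atp6 show no such high value in that library.

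Hypoxia replicate 2 had the highest counts of its group for several mitochondrial mRNAs, by very different margins. These are raw counts, not scaled to library size. It was the highest hypoxia library for mt-Co2 (2973 against 1539 and 1153), for its copy Gm28661 (2863 against 1693 and 1366) and for mt-Atp8 (375 against 19 and 19). It was the lowest for mt-Atp6 (822 against 1299 and 893), and it was in the middle of its group for mt-Co3 (735 against 806 and 706). It was also the highest hypoxia library for mt-Co1, and, away from this block, for mt-Cytb, mt-Nd2, mt-Nd4, mt-Nd4l (483 against 331 and 198), mt-Nd5 (47376 against 34368 and 29420) and mt-Nd6 (8357 against 6895 and 5190). It was the lowest for mt-Nd3 (119 against 162 and 152). For mt-Nd1 its raw count was in the middle (42400 against 45172 and 40276). Replicate 1, with 45172, also had more counts in total (18148474 against 17434604), so this order is not corrected for depth. Without it the log2 fold change of mt-Nd4l in hypoxia against control went from −2.24 to −2.62. The copy of mt-Atp6, Gm10925, had 2349 counts in this library against 2046 and 1635. The ratio of mt-Atp8 to mt-Atp6 counts, genes read from a shared mRNA, was 0.0146 and 0.0213 in the other 2 hypoxia libraries and 0.456 in this one, with 0.0184 to 0.0683 in control and 0.0277 to 0.0338 in hypoxia + rSRGN. Over all libraries the log2 ratio was −4.26 ± 2.72 in hypoxia and −5.00 ± 1.00 in control (SD, n = 3, exact two-sided permutation test p = 0.9, where 0.1 is the smallest p that 3 against 3 libraries allow). What set this library apart was not tested.

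The question asked of hypoxia + rSRGN is whether the added protein changes the response of hypoxic cultures. Of the 6 members, 2 were lower with rSRGN (mt-Co2 and mt-Atp8) and 0 were higher, with a median log2 fold change of −0.41. Over all genes, 3.13% were called, 2.27% higher and 0.859% lower, with a median of −0.03. The groups did not overlap for 3 of the 6 members, against 32.0% of all genes. Without hypoxia replicate 2, neither mt-Co2 nor mt-Atp8 was called and mt-Atp6 was called lower.

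mt-Cytb had 5985, 5678 and 5235 CPM with rSRGN, which overlapped the hypoxia range of 5888 to 7969 CPM (log2 fold change −0.25, 95% interval −0.45 to −0.05, adjusted p = 0.0798, edgeR). mt-Co1 had 12609, 11892 and 10929 CPM with rSRGN, all within the hypoxia range of 9928 to 13487 CPM (log2 fold change 0.02, 95% interval −0.19 to 0.22, adjusted p = 0.940, edgeR). A change of mt-Co1 beyond that interval was therefore not seen, whereas its level in both hypoxic groups was far below control. mt-Co3 had 40.1, 37.1 and 31.7 CPM, all under the lowest hypoxia value of 40.9 CPM, and was not called (log2 fold change −0.22, 95% interval −0.46 to 0.02, adjusted p = 0.214, edgeR).

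mt-Co2 had 62.4, 60.7 and 53.1 CPM with rSRGN, below all 3 hypoxia libraries and within a narrow range. It was called lower by 1.82-fold (log2 fold change −0.87, SE 0.22, adjusted p = 0.0101, edgeR). Without hypoxia replicate 2 the log2 fold change of mt-Co2 was −0.35 (adjusted p = 0.0746), and DESeq2 over all libraries gave an adjusted p of 0.143. mt-Atp8 had 1.25, 1.20 and 1.00 CPM with rSRGN, from 21, 25 and 19 counts, close to the 2 low hypoxia libraries. Its call (log2 fold change −2.77, SE 0.78, adjusted p = 0.0177, edgeR) rested on hypoxia replicate 2, without which the log2 fold change was 0.12 (SE 0.45, adjusted p = 0.898). The call was also lost when any single hypoxia + rSRGN library was left out, and DESeq2 gave no adjusted p for this gene.

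mt-Atp6 had 37.1, 43.5 and 33.3 CPM with rSRGN, all below the lowest hypoxia value of 47.5 CPM. Its adjusted p passed, but its 1.48-fold lower level fell just short of the 1.5-fold limit (log2 fold change −0.57, SE 0.13, adjusted p = 0.00459, edgeR). Without hypoxia replicate 2 the log2 fold change of mt-Atp6 was −0.68 (adjusted p = 0.000447) and it was called lower. It was also called without hypoxia replicate 3 (−0.63), without hypoxia + rSRGN replicate 2 (−0.68) and with library size alone as scaling (−0.59). Without hypoxia replicate 1, the highest of its group, the log2 fold change was −0.38 (adjusted p = 0.0317). Gm10925, identical to it over 678 bases, had log2 fold change −0.54, SE 0.10 and adjusted p = 0.000858 (edgeR). Member and copy had differed by more in hypoxia against control, and which of the 2 genes a fragment came from was not tested.

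**Figure D3:**
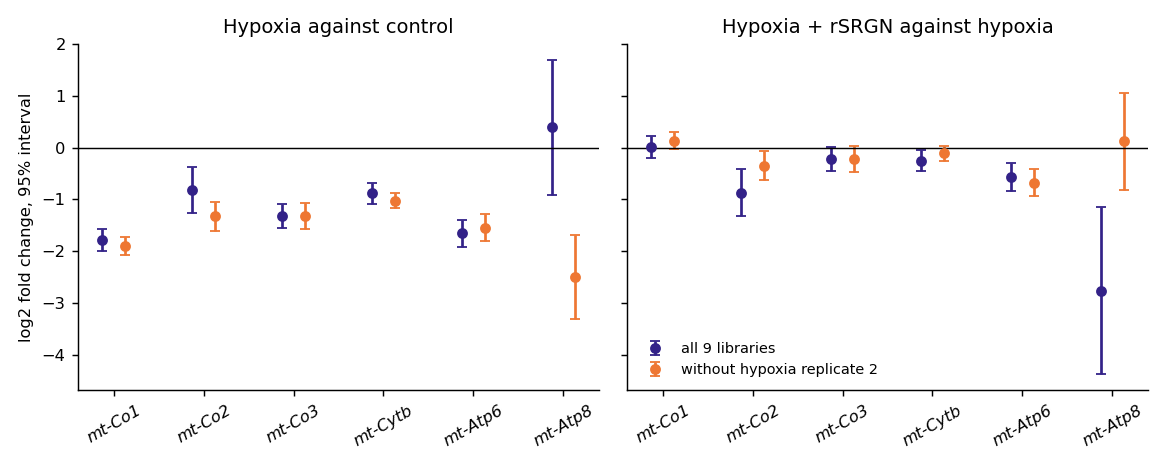
Log2 fold changes (edgeR) of the 6 transcripts with 95% intervals, from all 9 libraries and without hypoxia replicate 2, for hypoxia against control (left) and hypoxia + rSRGN against hypoxia (right). Leaving out this library moved mt-Atp8 from 0.39 to −2.50 on the left and from −2.77 to 0.12 on the right, while mt-Co3 stayed at −1.32 on the left and moved from −0.22 to −0.21 on the right.

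Set against control, the hypoxia + rSRGN libraries were lower for 6 of the 6 members, with no overlap for any of them and a median log2 fold change of −1.73. Over all genes, 48.8% were called (24.1% higher and 24.7% lower), 73.3% did not overlap and the median was 0.01. This comparison uses the same control libraries as hypoxia against control, so the values of both are given side by side. The log2 fold changes with and without rSRGN were −1.13 and −0.88 for mt-Cytb, −1.78 and −1.79 for mt-Co1, −1.68 and −0.81 for mt-Co2, −1.53 and −1.32 for mt-Co3, and −2.22 and −1.65 for mt-Atp6. For mt-Atp8 they were −2.38 (SE 0.78, adjusted p = 0.0104, edgeR) and 0.39. mt-Atp8 lost its call in hypoxia + rSRGN against control without control replicate 3, its highest control library (log2 fold change −1.83, adjusted p = 0.0606).

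Ratios within a library need no scaling between libraries. The 6 members together took 5.18 ± 0.31% of all counts in control, 1.89 ± 0.25% in hypoxia and 1.77 ± 0.12% in hypoxia + rSRGN (SD, n = 3). The control libraries lay above both hypoxic groups, with an exact two-sided permutation test p = 0.1 in each case, the smallest possible, and the hypoxic groups overlapped (exact p = 0.6). Among the counts of the 13 mitochondrial mRNAs, the 6 members held 60.1 ± 1.1% in control, 61.9 ± 0.99% in hypoxia and 64.2 ± 0.36% in hypoxia + rSRGN. Their share was higher with rSRGN than in either other group in all libraries (exact p = 0.1 for each), and control and hypoxia overlapped (exact p = 0.2).

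mt-Co1 and mt-Cytb, the members with the most counts, differed in how much lower they were. The ratio of mt-Cytb to mt-Co1 counts was 0.310, 0.317 and 0.291 in control, 0.540, 0.591 and 0.593 in hypoxia and 0.475, 0.477 and 0.479 in hypoxia + rSRGN. The 3 groups did not overlap, and the hypoxia + rSRGN libraries lay between the others within a very narrow range. On the log2 scale the ratio was higher by 0.91 in hypoxia than in control, lower by 0.27 in hypoxia + rSRGN than in hypoxia (−0.27) and higher by 0.64 in hypoxia + rSRGN than in control, each with an exact two-sided permutation test p = 0.1, the smallest possible. This ratio was chosen after its values were seen. The ratio of mt-Co2 to mt-Co1 counts, fixed in the design, was higher in hypoxia than in control by 0.90 on the log2 scale (exact p = 0.1) and differed between hypoxia + rSRGN and hypoxia by −0.77 (exact p = 0.1), or by −0.48 without hypoxia replicate 2. Between hypoxia + rSRGN and control it differed by 0.13 (exact p = 0.7).

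The other 7 mitochondrial mRNAs encode subunits of complex I (NADH dehydrogenase), which feeds electrons into the chain ahead of complexes III and IV. In hypoxia 6 of the 7 were lower, with a median log2 fold change of −1.81, against 25.1% of all genes called lower. mt-Nd6, which alone is encoded on the opposite strand (fragments were counted without regard to strand), fell by 2.88 on the log2 scale (SE 0.14) and mt-Nd5 fell by 2.48 (SE 0.13). mt-Nd4 had log2 fold change −0.43 (SE 0.08), under the fold limit. The 5 called members of complexes III to V lay between −0.81 and −1.79, within the span of the complex I mRNAs. Between hypoxia + rSRGN and hypoxia, where 3.13% of all genes were called, 0 of the 7 were called by edgeR and 0 by DESeq2, with a median of −0.24. At an unadjusted p below 0.05 in edgeR, without the fold limit, there were 3. The share of all genes at that limit is not given here. Without the fold limit, 2790 of all 16762 genes had an adjusted p below 0.05 in edgeR. On the same chromosome the 2 mitochondrial rRNAs moved the other way. mt-Rnr1 rose by 3.81 (SE 0.10) and mt-Rnr2 rose by 3.30 (SE 0.10) on the log2 scale in hypoxia, in libraries made from poly(A)-enriched RNA. With both rRNAs removed before scaling, the same number of members was called in each comparison.

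**Figure D4:**
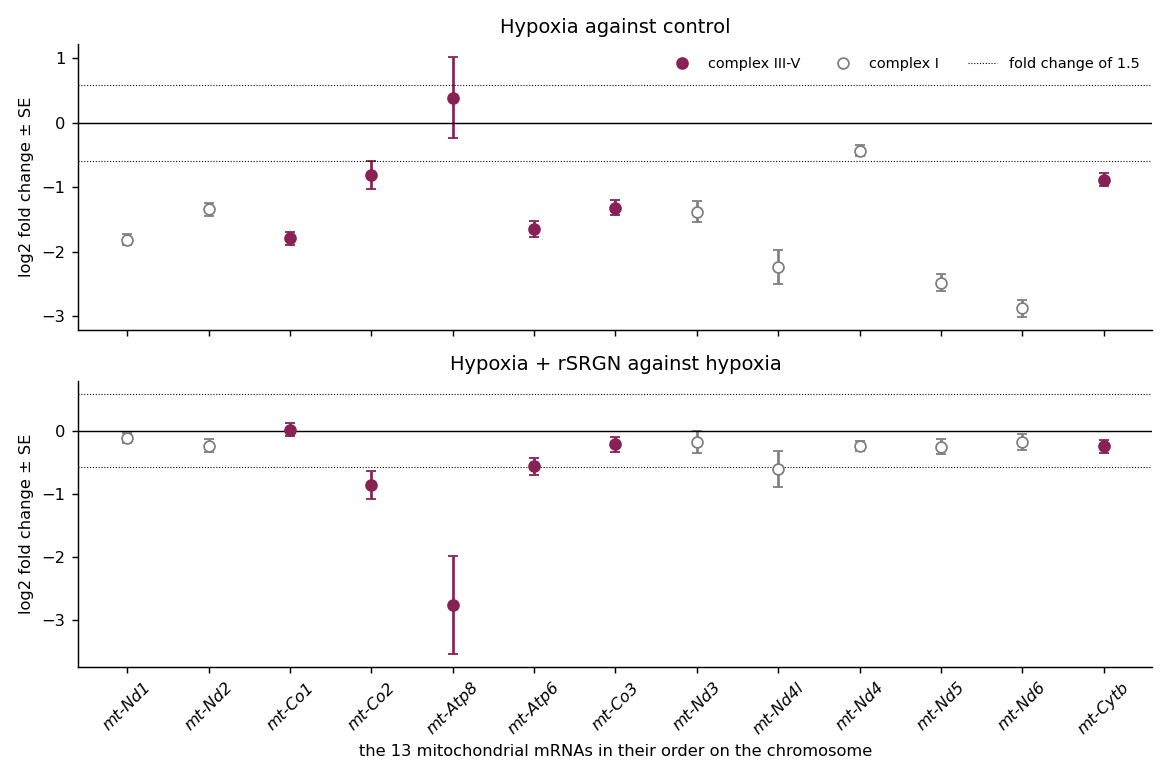
Log2 fold changes ± SE (edgeR) of the 13 mitochondrial mRNAs in their order on the chromosome, for hypoxia against control (top) and hypoxia + rSRGN against hypoxia (bottom), with filled points for complexes III to V, open points for complex I and dotted lines at a fold change of 1.5. In hypoxia 11 of the 13 lie below the lower line, and mt-Atp8 at 0.39 and mt-Nd4 at −0.43 do not.

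The nuclear genes for the same complexes were taken from fixed lists. All 9 nuclear subunits of complex III were lower in hypoxia than in control (median log2 fold change −1.63), among them Uqcrc1, a core subunit, which fell by 2.17 (SE 0.07), and Cyc1, cytochrome c1, which fell by 1.98 (SE 0.07). mt-Cytb, at −0.88, lay above the median of its nuclear partners. Of 16 nuclear subunits of complex IV, 12 were lower and 1 was higher (median −1.33). The heart and muscle isoforms Cox6a2 and Cox8b had log2 fold changes of −3.32 (SE 0.11) and −3.16 (SE 0.15), and Cox4i2, an isoform known to be induced by low oxygen, rose by 0.95 (SE 0.23). Of 17 tested subunits of complex V, 15 were lower (median −1.28), and Atp5a1, the alpha subunit, fell by 1.82 (SE 0.07) and Atp5g3, a subunit of the c ring, fell by 1.78 (SE 0.07). Of all genes, 25.1% were called lower, and the 10 cardiomyocyte markers were all lower as well, with a median log2 fold change of −3.70. What part the markers had in these counts was not tested.

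Between hypoxia + rSRGN and hypoxia 3.13% of all genes were called. For complex III 0 of 9 and for complex V 0 of 17 were called by edgeR, and of 16 for complex IV 2 were higher and 0 lower. DESeq2 gave 0, 0 and 2 calls for complexes III, V and IV, and an unadjusted p below 0.05 in edgeR without the fold limit was reached by 3, 2 and 4 genes. The 3.13% does not apply to that limit. Without the fold limit, 2790 of all 16762 genes had an adjusted p below 0.05 in edgeR. The 2 called genes of complex IV were Cox8b, which rose by 0.80 (SE 0.16), and Cox6a2, which rose by 0.75 (SE 0.11). Both are isoforms of heart and skeletal muscle, and 9 of the 10 cardiomyocyte markers were also higher with rSRGN (median log2 fold change 0.78). The mitochondrial core subunits of the same complex were not higher, with 0.02 for mt-Co1, −0.87 for mt-Co2 and −0.22 for mt-Co3.

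Other nuclear genes build the complexes or make and keep mitochondrial mRNAs. Of 28 tested assembly factors of complexes III to V, 13 were lower and 2 higher in hypoxia than in control (median −0.54). Together 53.6% were called, beside 51.6% of all genes (25.1% lower and 26.4% higher). Lyrm7 and Uqcc1, both needed for complex III, had log2 fold changes of −2.55 (SE 0.22) and −1.89 (SE 0.10). Cox18 and Surf1, both needed for complex IV, had log2 fold changes of 0.92 (SE 0.11) and 0.60 (SE 0.10). Of 24 factors of mitochondrial mRNA synthesis, processing and stability, 10 were lower and 1 higher (median −0.48). This is 45.8% called, beside the same shares of all genes. Taco1, which activates translation of mt-Co1, fell by 1.86 (SE 0.11), from 29.2 to 8.04 CPM, and Fastkd1, an RNA-binding protein of the mitochondrial matrix, fell by 2.18 (SE 0.15). Rexo2, an exonuclease of short RNAs in mitochondria, rose by 1.28 (SE 0.09), from 61.0 to 148 CPM. Between hypoxia + rSRGN and hypoxia, 0 of the 28 and 0 of the 24 were called by edgeR or by DESeq2, with medians of −0.13 and −0.12, beside 3.13% of all genes called. At an unadjusted p below 0.05 in edgeR, without the fold limit, there were 11 and 7. The 3.13% does not apply to that limit. Of all 16762 genes, 2790 had an adjusted p below 0.05 in edgeR without the fold limit.

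**Figure D5:**
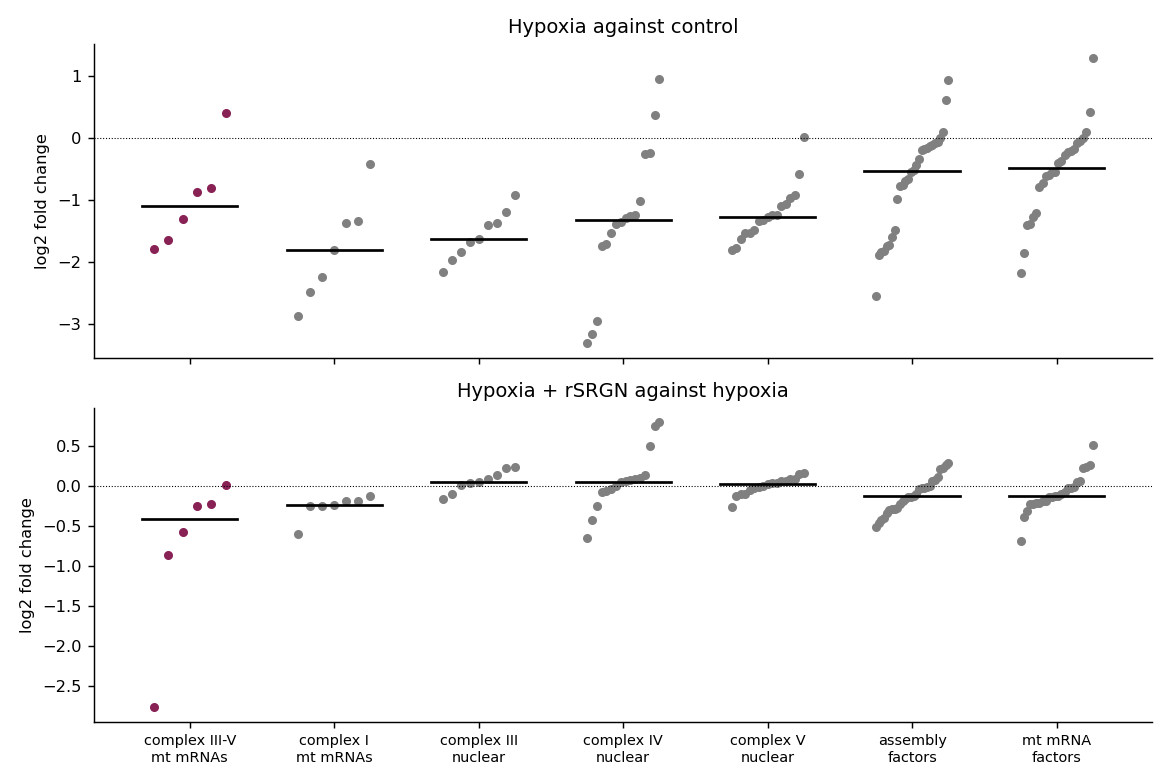
Log2 fold changes (edgeR) of the 6 mitochondrial mRNAs of complexes III to V (coloured) beside those of complex I, the nuclear subunits of complexes III, IV and V, assembly factors and mitochondrial mRNA factors, 1 point per tested gene with a bar at the median, for hypoxia against control (top) and hypoxia + rSRGN against hypoxia (bottom). The medians of complexes III, IV and V lie at −1.63, −1.33 and −1.28 in the top panel and between 0.03 and 0.06 in the lower panel.

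The genes most like the members over the 9 libraries were also sought, by Pearson correlation of log2 CPM. The mean of the 6 members was closest to Htatsf1 (r = 0.994), Hprt, a purine salvage enzyme (r = 0.991), and Ndufc2, a nuclear subunit of complex I (r = 0.989), among 14234 genes. These 9 points fall into 3 treatment groups, and the control libraries are also the deepest, so the values are a description. Among the mitochondrial mRNAs, mt-Cytb was closest to mt-Nd2 (r = 0.994), mt-Co1 to mt-Nd5 (r = 0.994), mt-Co3 to mt-Nd3 (r = 0.983) and mt-Atp6 to mt-Nd1 (r = 0.959). The closest mRNA was mt-Cytb for mt-Co2 (r = 0.912) and mt-Co2 for mt-Atp8 (r = 0.784), the lowest of the 6 values.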

How the data were processed

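RNA-seq counts of 9 libraries of NMVM cultures were analysed. The authors deposited counts of fragments, 1 whole number for each gene and library, which were not normalized. They were made with featureCounts 2.0.1 from read pairs over exons of GENCODE release 25 (GRCm38) and no strand or multi-mapping option. The submitters' processing notes list HISAT2 and mm10. All 9 value columns were assigned to samples by their names, and 0 were left unused.

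Counts were analysed with edgeR 4.0.16 in R 4.3.3 (filterByExpr, TMM, quasi-likelihood fit of 1 mean per group over all 9 libraries, Benjamini-Hochberg adjustment over 16762 genes), and the step was tested on simulated data. Of 200 genes simulated with a 2-fold change, 76% were recovered in hypoxia against control and 77.5% in hypoxia + rSRGN against control. In hypoxia + rSRGN against hypoxia 69.5% were recovered. Calls needed an adjusted p under 0.05 together with a change of 1.5-fold or more. Single shares and ratios were compared by exact permutation tests over libraries with scipy 1.17.1. Chi-square values of 3.63 to 13.1 per degree of freedom for library pairs within a group exceeded sampling noise, so no library appeared to be deposited more than once. This does not show that the libraries came from separate cultures. Nuclear copies were found with blastn 2.17.0 among transcripts of GENCODE release 21. Log2 CPM for correlations had a prior count of 2.

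The members and gene lists were chosen with earlier results of these data known. Named genes were the 6 members, up to 2 called genes with the largest rise and fall per list and comparison at a mean of at least 1 CPM, mitochondrial genes where a result turned on them, the 3 nuclear genes and 1 mitochondrial mRNA most like the members, and nuclear copies of at least 90% identity over 100 bases. Some genes that the rule gave for hypoxia + rSRGN against control are not described. Endothelial, macrophage, smooth muscle and red blood cell markers were checked too. In hypoxia 4 of 6, 5 of 6 and 1 of 5 were lower, 0, 1 and 1 were higher, and 0 of 5 red blood cell markers passed the filter. Alternatives were DESeq2 1.42.0, other scaling, filters and call limits, a fit restricted to the compared groups, a block for the replicate number, copy counts added, rRNA genes removed and each library left out. Leaving out hypoxia replicate 2 together with control replicate 3, and the alternatives for the ratio of mt-Cytb to mt-Co1, were chosen after seeing the data.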

Additional observations from a re-analysis of the deposited data

How the results depend on the processing

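Depth was no limit for mt-Co1 and mt-Cytb, with at least 99109 counts in every library, but mt-Atp8 had 19 to 375 counts. In hypoxia against control 5 members were called, with 4 to 6 when each library was left out, and in hypoxia + rSRGN against control 6, with 5 to 6. In hypoxia + rSRGN against hypoxia 2 were called, with 1 to 3 when each library was left out (1 without hypoxia replicate 2, without hypoxia + rSRGN replicate 1 and without hypoxia + rSRGN replicate 3), 1 without both hypoxia replicate 2 and control replicate 3, and 0 with DESeq2, which gave no adjusted p for mt-Atp8. At an unadjusted p below 0.05 with the fold limit edgeR called 2. Of the 66 alternatives for these counts 61 stayed within 1.5 times the reported count.

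Of 393 alternatives for single log2 fold changes, 370 kept their direction and call, 6 gained and 9 lost a call, and 8 turned direction. mt-Atp8 in hypoxia against control turned from 0.39 to −2.50 without hypoxia replicate 2 (highest 0.94, without control replicate 3) and to −1.94 without control replicate 3 as well, and in hypoxia + rSRGN against hypoxia from −2.77 to 0.12 in both (lowest −3.30, without hypoxia replicate 1). mt-Co1 in hypoxia + rSRGN against hypoxia, near 0 throughout, turned to −0.0024 with library size alone, −0.087 without hypoxia replicate 3 (highest 0.13, without hypoxia replicate 2) and −0.03 without hypoxia + rSRGN replicate 1. mt-Atp8 lost its call against hypoxia without any one hypoxia + rSRGN replicate (adjusted p of 0.0589, 0.0707 and 0.0628). Other scalings moved the median of all genes by at most 0.07. In hypoxia + rSRGN against hypoxia 525 genes were called in all, with 321 without hypoxia replicate 3, 899 at an unadjusted p and 2790 with no fold limit.

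With the replicate number as a block, mt-Atp8 in hypoxia against control was −0.33 (adjusted p = 0.665, edgeR), and 5, 2 and 6 members were called, as without it. No pairing by number was seen, since deviations of libraries with the same number correlated at −0.04 to 0.02. With so few libraries per group this cannot show that they were unpaired.

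Of 108 alternatives for shares and ratios, 102 kept their direction. The share of all counts in hypoxia + rSRGN against hypoxia ranged from −0.241 to 0.00606 percentage points when each library was left out. With each library left out, the log2 ratio of mt-Atp8 to mt-Atp6 ranged from −0.82 to 1.66 in hypoxia against control, from −1.69 to 0.79 in hypoxia + rSRGN against hypoxia and from −0.41 to 0.53 in hypoxia + rSRGN against control (−0.59 with copy counts added). That of mt-Co2 to mt-Co1 in hypoxia + rSRGN against control ranged from −0.10 to 0.34. The causes of these turns were not tested.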

Other observations

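Of 22 mitochondrial tRNA genes 13 passed the filter on low counts, and in hypoxia against control 11 of these were lower and 2 higher (edgeR), with a median log2 fold change of −2.19, against 25.1% and 26.4% of all genes. The 2 higher ones, mt-Tq and mt-Tm, were named after their values were seen. mt-Tq had 9, 7 and 5 counts in control and 22, 38 and 18 in hypoxia. mt-Tm had 3, 13 and 3 counts in control and 9, 14 and 25 in hypoxia. Between hypoxia + rSRGN and hypoxia 1 tRNA was higher and 1 lower, against 2.27% and 0.859% of all genes. The tRNA genes between mt-Co1 and mt-Co2 (mt-Ts1 and mt-Td) and between mt-Co2 and mt-Atp8 (mt-Tk) had 0 or 1 count in every library, while mt-Ty, ahead of mt-Co1, had 55 to 158. The libraries were poly(A)-enriched, and the tRNA genes are short.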
